A study of Mus musculus with 18 samples.

Results

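Transcripts of 10 ligands that NK cell receptors recognise were followed in 18 lung lesions cut out by laser. The lesions were metastases of AT3, a mammary carcinoma line of the mouse. The genes were Pvr and Nectin2 (seen by DNAM-1), Raet1d, Raet1e, Ulbp1 and H60b (seen by NKG2D), Clec2d (seen by Nkrp1 receptors), Cadm1 (seen by CRTAM), Cd48 (seen by 2B4) and Icam1 (seen by LFA-1). They were chosen by name for this role, with earlier results of these data known, and are 10 of the 49585 genes in the deposited count table. The study set lesions that grew in mice given NK cells beside lesions of mice given none. The group called NK transferred held 7 lesions of 2 mice, NK1 (3 lesions) and NK2 (4 lesions), which received 60000 mouse NK cells, activated in culture, by vein on day 11. The group called Ctrl held 11 lesions of 3 mice, KO1 (5 lesions), KO2 (4 lesions) and KO3 (2 lesions), which received PBS on the same day. All 5 mice shared the strain given as Rag2-/-IL2rg-/- in the sample labels, whereas the protocol text names Rag1 in place of Rag2. All carried AT3 cells labelled with GFP and mCherry in the mammary fat pad, from which the cells reached the lung on their own. Such hosts have no T, B or NK cells of their own but keep myeloid cells, so a control lesion still holds other leukocytes. Ages and sex are not given, and nothing is said of how the lesions of a mouse relate to each other. A lesion is written below as its mouse and number, so that KO3-2 is the second lesion of mouse KO3.

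An NK cell weighs signals from receptors that activate it against signals from receptors that hold it back, and the ligands on the cell it touches set that balance. DNAM-1 and NKG2D activate killing. Their ligands are low on most healthy cells and are often induced by stress or transformation. Pvr and Nectin2 are also bound by TIGIT, which inhibits. Clec2d binds the inhibitory Nkrp1 receptor that Klrb1b encodes and protects cells that carry it, Cadm1 engages CRTAM on activated lymphocytes, and Icam1 holds an NK cell to its target through the integrin LFA-1. Leukocytes carry Cd48 themselves, so that in a lesion it can come from host immune cells as well as from any other source. Icam1 is likewise found on myeloid cells, and the cells that gave each ligand transcript were not determined.

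Total counts were 2964242 to 11798897 per lesion, and outside the mitochondrial genes 1411608 (NK1-3) to 9758529. The mitochondrial transcript mt-Rnr2 made up 12.1% to 68.7% of the counts and over 40% in 6 lesions, among them all 3 of NK1. Ncr1, the gene of the NK cell receptor NKp46, gave 175 counts in the lesions of mice given NK cells and 5 in the controls. By lesion, 13 NK cell markers summed to 2.94 (NK1-3) to 84.1 CPM (counts relative to the library size after TMM scaling) in these mice. In controls the sum was 0.465 to 10.3 CPM (KO3-2), so the groups overlapped. Below, a lesion with NK cells or with transferred cells is one from a mouse given them, whatever its NK marker level. Lung tissue was present in every lesion, since the summed level of 8 alveolar type 2 markers was 206 to 2784 CPM with NK cells and 665 to 3535 CPM in controls. A list of 10 epithelial genes, drawn up for tumour cells, summed to 106 to 1079 CPM with NK cells and 92.9 to 393 CPM in controls. Its highest lesion, NK1-3, also had the highest sum of 7 airway epithelium markers (25137.5 CPM). Tumour and lung epithelium were not told apart by this list.

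Counting per kilobase of exon, the ligands spanned a wide range of levels. The length was that of all annotated exons of a gene together, from 1189 bases (Cd48) to 10440 bases (Cadm1). The transcripts present may be shorter, so the order of genes is approximate. Clec2d was the most abundant, with a median over 18 lesions of 49.0 CPM per kb. Cd48 followed at 11.99, Icam1 at 10.6 and Pvr at 6.29 CPM per kb. Raet1e stood at 2.97, Cadm1 at 1.73 and Nectin2 at 0.838 CPM per kb. Raet1d (0.329 CPM per kb) and Ulbp1 (0.0305 CPM per kb) were near the limit of detection, and H60b had a median of 0. Clec2d exceeded Cd48 in 18 of 18 lesions, by a median of 3.97-fold. Cd48 and Icam1 could not be ordered, as Cd48 was the higher of them in 10 of 18 lesions. Further down, Icam1 exceeded Pvr in 13, Pvr exceeded Raet1e in 15, Raet1e exceeded Cadm1 in 12, Cadm1 exceeded Nectin2 in 14, and Nectin2 exceeded Raet1d in 11 of 18 lesions. Most neighbours in this order therefore changed places in some lesions.

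**Figure D1:**
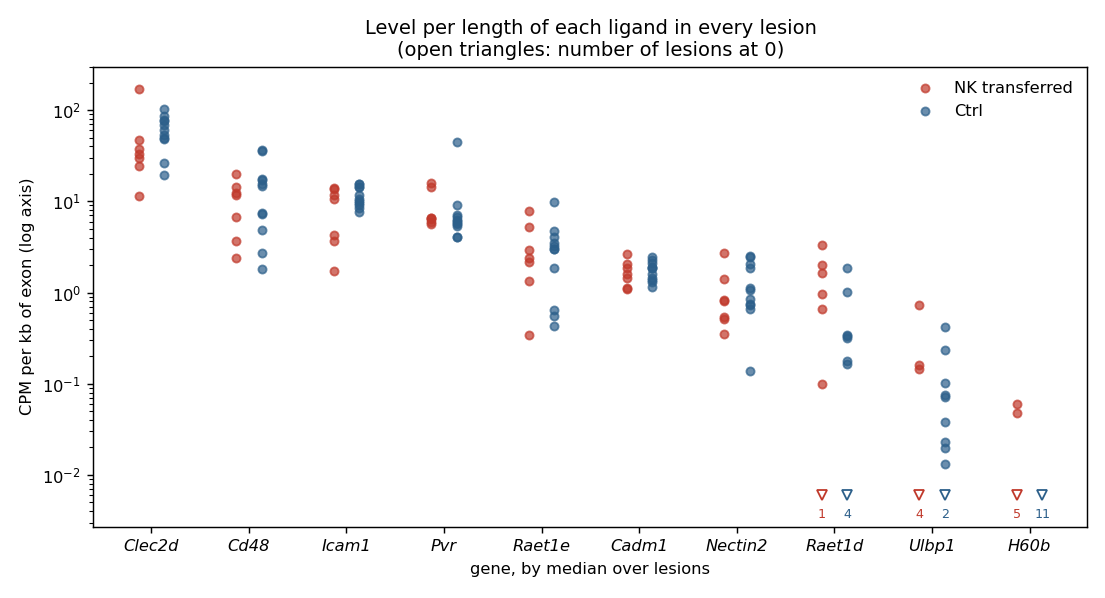
Level of each ligand per kilobase of exon in every lesion (vertical axis, CPM per kb, log axis), with genes ordered by their median over 18 lesions. Points are lesions, red with NK cells and blue without, and open triangles give the number of lesions at 0. Clec2d is highest, and Raet1d, Ulbp1 and H60b are the genes with lesions at 0.

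Pvr (chromosome 7, 19903578 to 19921160, minus strand) and Nectin2 (chromosome 7, 19716644 to 19750483, minus strand) lie close together and encode adhesion proteins of the nectin family that bind DNAM-1. Pvr was measured in all 18 lesions. With NK cells its lowest, median and highest lesion had 34.4, 39.8 and 96.9 CPM, and in controls 24.6, 37.1 and 270.5 CPM. Most lesions of both groups fell in the same narrow band, and single lesions stood above it: NK1-3 (96.9 CPM) and NK2-2 (87.3 CPM) with NK cells, and KO3-2 among the controls, where the next lesion had 55.8 CPM. Summed by mouse, Pvr averaged 48.3 ± 8.46 CPM (SD, n = 2) in mice that had received NK cells and 67.1 ± 46.5 CPM (SD, n = 3) in control mice. The log2 fold change was -0.47 ± 0.57 (SE, edgeR quasi-likelihood test on mouse sums, adjusted p = 0.9998), and its sign rested on mouse KO3. It was 0.35 without KO3-2 and -1.33 without KO3-1. KO3-2 also had the highest summed levels of leukocyte markers (2638 CPM) and neutrophil markers (5519 CPM) of the 18 lesions, and their part in the Pvr level was not tested. In samples of whole lesions, fewer cells of a type and less RNA per cell cannot be told apart.

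Nectin2 was far lower. Its lesions had 1.22, 2.85 and 9.54 CPM (lowest, median, highest) with NK cells and 0.477, 3.69 and 8.72 CPM in controls. Per kilobase, Pvr exceeded Nectin2 in 18 of 18 lesions, by 2.14-fold in KO3-1, a median of 6.45-fold, and 324-fold in KO3-2. That last ratio rests on 2 Nectin2 counts against 1134 Pvr counts, so the lesion with the highest Pvr had the lowest Nectin2. The lesions of KO3 were thus opposite to each other in the pair of DNAM-1 ligands. By mouse, Nectin2 was the only ligand whose groups did not overlap, at 3.62 and 2.57 CPM in NK1 and NK2 against 5.48, 3.93 and 5.92 CPM in KO1, KO2 and KO3. Of all 16917 genes tested, 6.86% likewise had both mice with NK cells below every control mouse. The log2 fold change of Nectin2 was -0.73 ± 0.65 (edgeR, adjusted p = 0.9998), and it ranged from -0.98 to -0.13 when 1 lesion was left out. The value nearest to 0 came without KO3-1, in which Nectin2 was highest among the controls.

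The NKG2D ligands Raet1d, Raet1e and H60b are built on 1 stretch of chromosome 10 (GRCm38, GENCODE M21, plus strand). The gene model of Raet1e (22158569 to 22374139) contains both H60b (22158586 to 22288849) and Raet1d (22360552 to 22374139). Raet1e shares 133 exon bases with H60b and 363 with Raet1d. RefSeq gives Raet1e a pair of starts, and the stretch before the second of them is nearly a copy of the stretch before Raet1d, 188397 bases away. Both are shown because they make visible how alike these genes are, which bears on how reads were divided between them. The windows come from RefSeq (GRCm38.p6), at chr10:22173249-22173496 for Raet1e and chr10:22361644-22361891 for Raet1d, both on the plus strand. Of 248 aligned bases, 245 are identical, and the capitals mark the 3 that differ.
Raet1e, second RefSeq start: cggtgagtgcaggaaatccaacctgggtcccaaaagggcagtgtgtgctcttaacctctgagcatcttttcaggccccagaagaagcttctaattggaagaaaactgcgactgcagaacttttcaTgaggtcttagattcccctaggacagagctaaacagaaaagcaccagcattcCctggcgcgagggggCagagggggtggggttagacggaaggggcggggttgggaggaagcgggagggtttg
Raet1d: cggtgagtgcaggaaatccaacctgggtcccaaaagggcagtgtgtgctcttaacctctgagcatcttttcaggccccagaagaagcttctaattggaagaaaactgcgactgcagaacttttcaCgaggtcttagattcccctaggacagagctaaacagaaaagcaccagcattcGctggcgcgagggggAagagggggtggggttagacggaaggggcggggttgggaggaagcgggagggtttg

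The likeness extended into the transcripts. Of the 1390 different words of 50 bases in the Raet1d transcripts, 55.8% also occurred in a Raet1e transcript. By contrast 0 of 6815 words of Ulbp1, an NKG2D ligand elsewhere on the chromosome (7440362 to 7473638, minus strand), occurred in Raet1e. In the deposited expected counts, Raet1d and Raet1e were fractional in the same 11 lesions, with fractions that complemented each other. Raet1d, Raet1e and H60b together gave a whole number in 18 of 18 lesions (tolerance 0.015 counts). The division of reads between Raet1d and Raet1e is therefore an estimate, and their sum is the firmer value.

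Summed, the Raet1d, Raet1e and H60b counts gave 0.734, 6.04 and 21.7 CPM (lowest, median, highest lesion) with NK cells. In controls they gave 0.924, 7.18 and 21.99 CPM. The spread within each group covered nearly the whole range of the other. By mouse the sum was 5.81 CPM (NK1) and 12.5 CPM (NK2) beside 7.63, 12.99 and 1.13 CPM (KO1, KO2 and KO3), with a log2 fold change of 0.33 ± 0.89 (edgeR, adjusted p = 0.9998). Both lesions of KO3 were low, with 7 and 6 counts, against 84 to 265 counts in the 4 lesions of KO2.

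Raet1e made up most of that sum. Its lesions ranged from 0.734 to 16.8 CPM with NK cells (median 5.12) and from 0.924 to 21.5 CPM in controls (median 6.52), and the log2 fold change was 0.13 ± 0.91 (edgeR, adjusted p = 0.9998). Leaving out NK2-3, the lesion with the most Raet1e of its group, turned the value to -0.11, so that its direction was not fixed. Raet1d was at 0 in 1 of the 7 lesions of NK1 and NK2 and in 4 of 11 control lesions, with highest values of 4.82 CPM (NK2-3) and 2.68 CPM (KO2-3). Its fold change was the largest of the ligands, 1.62 ± 1.197 on the log2 scale (1.78 ± 0.765 CPM in 2 mice against 0.563 ± 0.643 CPM in 3, adjusted p = 0.9998), and the mice overlapped, with KO2 at 1.29 CPM above NK1 at 1.24 CPM. It stayed between 1.22 and 2.08 when 1 lesion was left out and reached 3.06 without mouse KO2. Beside it, the value of the summed locus was 0.33 ± 0.89.

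Ulbp1 was barely detected. Counts of it were found in 3 of 7 lesions with transferred cells (41 in all) and in 9 of 11 control lesions (53 in all). With NK cells all counts came from NK1-2 (12), NK2-1 (15) and NK2-2 (14), while 4 lesions had 0. The log2 fold change was 0.80 ± 1.19 (edgeR, adjusted p = 0.9998), and it was -0.65 without NK1-2. H60b did not pass the filter on low counts and was not tested. It had 1 and 1.01 counts in NK2-3 and NK2-4 and 0 in every other lesion, which allows up to 0.0307 CPM over the control lesions (3 counts, counting error only).

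Clec2d (chromosome 6, 129180615 to 129186534, plus strand) is the ligand that inhibits NK cells through an Nkrp1 receptor. Its lesions had 13.9, 40.03 and 206 CPM (lowest, median, highest) with NK cells and 23.7, 73.9 and 124 CPM in controls. A single lesion, NK1-1, carried 1299 of the 3922 Clec2d counts of its group, and the other 6 lesions with NK cells ended at 57.5 CPM. Of the controls, 2 of 5 lesions of KO1 (31.8 and 23.7 CPM) and none of KO2 or KO3 lay below that value. By mouse the means were 90.2 ± 64.6 CPM (n = 2) and 84.7 ± 28.9 CPM (n = 3), with a log2 fold change of 0.09 ± 0.54 (edgeR, adjusted p = 0.9998). Without NK1-1 the value was -1.09, with an unadjusted p of 0.0380 and an adjusted p of 0.9997 in the same edgeR fit. NK1-1 had the highest summed levels of 3 marker lists among the 18 lesions: fibroblast (8356 CPM), fat and heart muscle (404 CPM) and NK cell markers (84.1 CPM). The part of these cells in the Clec2d level was not tested.

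Cadm1 (chromosome 9, 47530173 to 47857637, plus strand), an adhesion protein of epithelial and mast cells that CRTAM binds, was measured in all 18 lesions, at 1.09 to 2.67 CPM per kb. It ran from 11.4 to 27.9 CPM with NK cells (median 16.9) and from 11.9 to 25.4 CPM in controls (median 19.2). The group means were 17.2 ± 7.56 CPM (n = 2 mice) and 18.05 ± 4.51 CPM (n = 3), and the log2 fold change was -0.06 ± 0.47 (edgeR, adjusted p = 0.9998). All 3 lesions of NK1 (11.4, 15.2 and 11.7 CPM) lay below all 4 of NK2 (16.9 to 27.9 CPM), yet the mice were not told apart by the test between hosts (adjusted p = 0.240).

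Cd48 (chromosome 1, 171682009 to 171705258, plus strand), the surface protein of leukocytes that 2B4 binds, separated the mice, with both treatments on each side. Its lesions had 8.09, 2.87 and 4.403 CPM in NK1 and 8.74, 2.166, 5.78, 8.63 and 3.25 CPM in KO1. NK2 had 14.5, 14.01, 23.7 and 17.1 CPM, KO2 had 42.5, 20.97, 20.5 and 17.7 CPM, and KO3 had 18.5 and 43.2 CPM. All 8 lesions of NK1 and KO1 thus lay below all 10 lesions of the other 3 mice, and each set holds mice of both treatments. Between the treatments the means were 12.2 ± 8.68 CPM (n = 2) and 20.6 ± 11.8 CPM (n = 3), with a log2 fold change of -0.74 ± 0.72 (edgeR, adjusted p = 0.9998). It was -0.16 without mouse NK1 and -1.76 without NK2.

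Whether mice of the same treatment differed was tested with a joint edgeR quasi-likelihood F test of NK2 against NK1, KO2 against KO1 and KO3 against KO1 over the 18 lesions. Lesions of a mouse are not independent samples of a treatment, so this test speaks of these 5 mice only. It called 842 of 15741 genes, 5.35%, at an adjusted p under 0.05. Of the 9 ligands tested it called 2, Cd48 and Icam1. For Cd48 the log2 differences were 1.71 ± 0.57 (SE) for NK2 against NK1, 2.11 ± 0.47 for KO2 against KO1 and 2.39 ± 0.54 for KO3 against KO1, with an adjusted p of 0.0127. The call held in each of the 18 fits that left out 1 lesion (adjusted p 0.00437 to 0.0313), in the 3 control mice alone (adjusted p = 0.0436), and without the 6 lesions over 40% mt-Rnr2 (adjusted p = 0.0332). The fit without the lesions over 40% mt-Rnr2 holds no lesion of NK1, so its test too compares control mice only. In the pair of mice with NK cells alone the call of Cd48 was lost (edgeR, adjusted p = 0.199). That fit called 0 of 13400 genes, with 2299 at an unadjusted p under 0.05.

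General leukocyte markers moved with Cd48. All 9 markers of that list had counts in every mouse, and 7 of the 9, Ptprc (CD45) among them, were called between hosts. Their summed level was 357 to 659 CPM in the lesions of NK1 and KO1 and 727 to 2638 CPM in the others, the same split as for Cd48. Taken as a percentage of that sum, Cd48 was 0.412% to 2.23% in the first set of lesions (median 1.27%) and 1.21% to 3.25% in the second (median 1.71%), so that the sets overlapped. The part of leukocyte content in the Cd48 difference was not tested. The sample names also number the libraries of NK1 and KO1 as 1 to 8 and all others as 9 to 18. What this order stands for is not given, and it cannot be told apart from the mice.

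**Figure D2:**
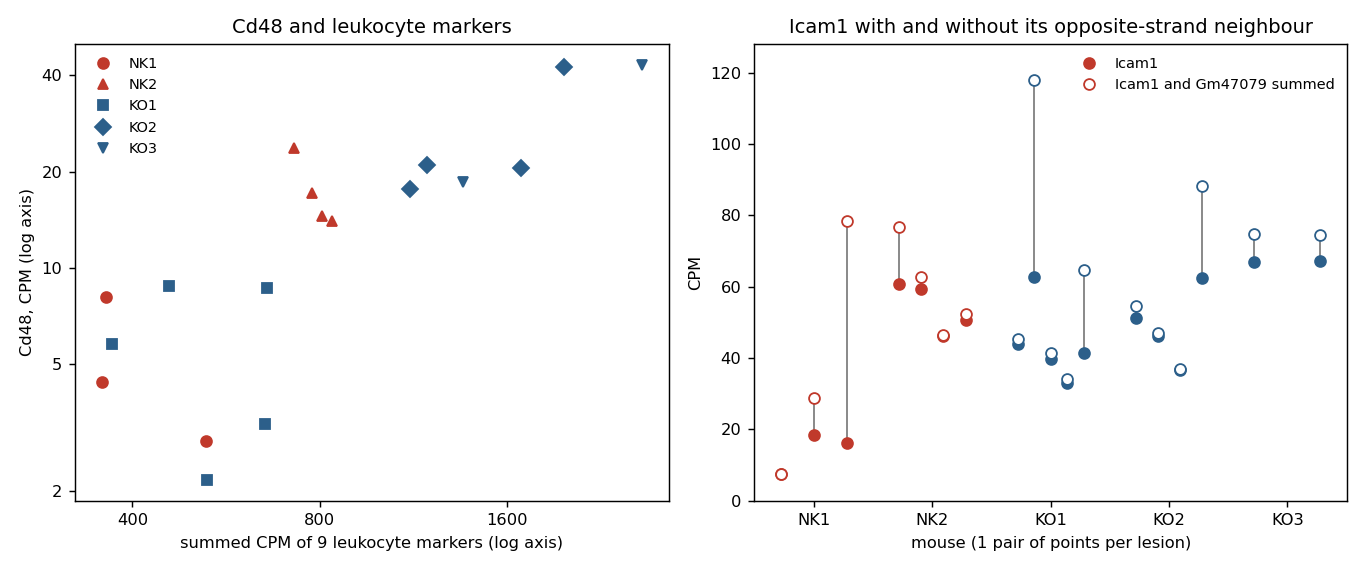
Left, Cd48 (vertical, CPM, log axis) against the summed level of 9 leukocyte markers (horizontal, CPM, log axis), 1 point per lesion with a symbol for each mouse. The lesions of NK1 and KO1 sit at the lower left, under 9 CPM of Cd48. Right, Icam1 (filled) and Icam1 with Gm47079 added (open) in CPM for each lesion by mouse. The filled points of NK1 lie below all others, and the open point of NK1-3 does not.

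Icam1 (chromosome 9, 21015985 to 21028817, plus strand), the adhesion molecule of endothelium, epithelium and myeloid cells that LFA-1 binds, was low in a single mouse. NK1 had 7.45, 18.4 and 16.1 CPM, and NK2 had 60.9, 59.4, 46.1 and 50.55 CPM. The 11 control lesions lay between 33.02 and 67.3 CPM with a median of 46.3, so the lesions of NK1 were below all 15 others. The means by treatment were 34.2 ± 32.97 CPM (n = 2) and 54.7 ± 12.96 CPM (n = 3), with a log2 fold change of -0.67 ± 0.65 (edgeR, adjusted p = 0.9998). Without mouse NK1 it was 0.08 and without NK2 it was -2.34. In the test between hosts Icam1 had an adjusted p of 0.0194 and log2 differences of 1.97 ± 0.38 for NK2 against NK1, 0.16 ± 0.30 for KO2 against KO1 and 0.61 ± 0.37 for KO3 against KO1.

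The Icam1 call depended on a neighbour. The last exon of Icam1 overlaps Gm47079, a gene on the opposite strand (21028307 to 21032357), by 511 exon bases, and the sources used here do not say whether reads were counted by strand. Expected counts of Icam1 were fractional in 16 of 18 lesions, and adding Gm47079 made them whole in 12 of these (tolerance 0.015 counts). In NK1-3, Gm47079 took 84.7 counts and Icam1 22.3. Gm47079 held 48.8% of the joint counts in NK1 and 8.52% to 15.1% in the other mice, with lesions pooled. Within a mouse the share varied widely. Gm47079 had 0 counts beside 47 of Icam1 in NK1-1. Among the lesions of KO1 it had 178.4 beside 202.6 in KO1-2 and 49.75 beside 89.27 in KO1-5. With both genes summed, the lesions of NK1 had 7.45, 28.7 and 78.5 CPM, and the adjusted p between hosts rose to 0.730. The call was also lost in the control mice alone (adjusted p = 0.414), in the mice with NK cells alone (0.162) and without the lesions over 40% mt-Rnr2 (0.234), a fit that holds no lesion of NK1.

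Endothelial and alveolar markers were low in 2 of the 3 lesions of the same mouse. All 12 endothelial markers had counts in each mouse, and 7 of 12 were called between hosts. Their summed level was 54.6 and 67.2 CPM in NK1-1 and NK1-2, 371 CPM in NK1-3, and 183 to 560 CPM in the other 15 lesions. The 8 alveolar type 2 markers, of which 3 were called between hosts, summed to 206 and 314 CPM in NK1-1 and NK1-2, to 2784 CPM in NK1-3 and to 665 to 3535 CPM in the other mice. The 7 alveolar type 1 markers, of which 2 were called, summed to 91.8, 98.8 and 746 CPM in NK1 and to 159.7 to 566 CPM elsewhere. NK1-3 had 16.1 CPM of Icam1, or 78.5 CPM with Gm47079 added. Its endothelial and alveolar type 2 sums lay within the range of the other mice, and its alveolar type 1 sum was the highest. The mt-Rnr2 share was 47.6%, 65.3% and 52.0% in the 3 lesions of NK1, and the part of this share and of these cells in the Icam1 difference was not tested.

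Of the other ligands, Pvr had an adjusted p between hosts of 0.0526 and a log2 difference of 2.26 ± 0.54 for KO3 against KO1. It was 0.00285 without KO3-1 and 0.720 without KO3-2, since that lesion holds the Pvr maximum. Raet1e had an adjusted p of 0.0824, with KO3 below KO1 by a log2 difference of -2.51 ± 0.94. Clec2d (0.278), Raet1d (0.321), Ulbp1 (0.609) and Nectin2 (0.723) were not told apart between mice of the same treatment. Those p-values do not show that their levels were alike, as the SEs of Ulbp1 reached 2.42 on the log2 scale.

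**Figure D3:**
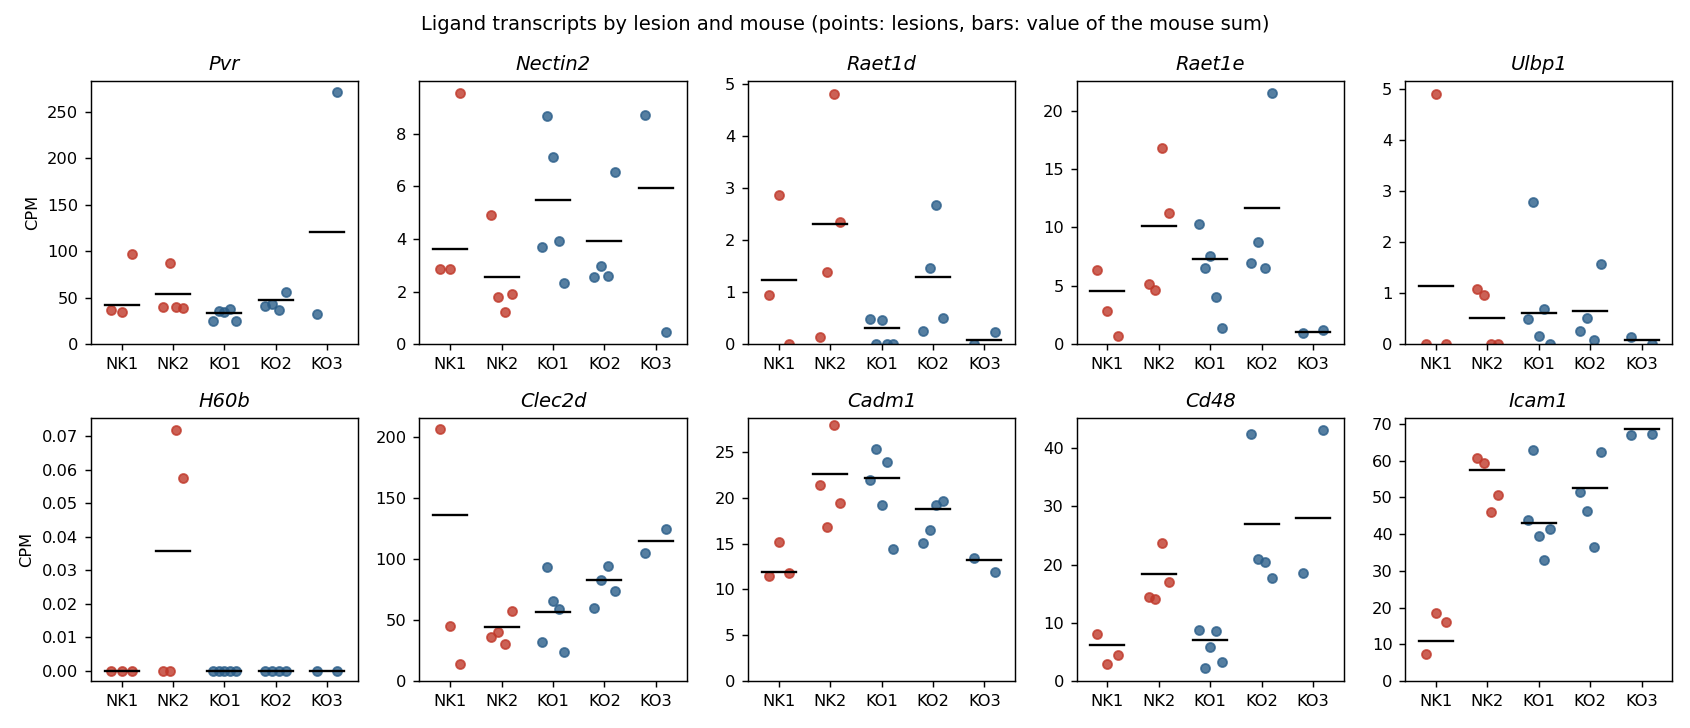
CPM of each ligand (vertical axes from 0, or just below 0 for H60b, scaled by gene) in every lesion, by mouse. Points are lesions, red with NK cells and blue without, and black bars are the value of the counts summed over a mouse. Cd48 is low in NK1 and KO1, Icam1 is low in NK1, and Pvr in KO3 rests on a single lesion.

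**Figure D4:**
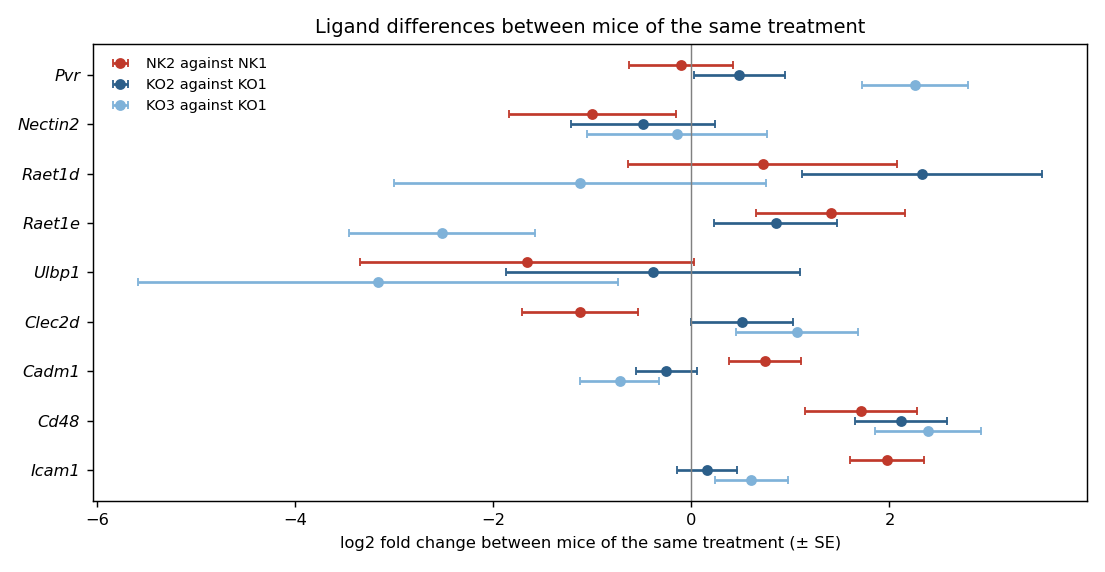
Log2 difference between mice of the same treatment (horizontal axis, points with bars of ± 1 SE) for the 9 ligands tested. The 3 Cd48 differences lie between 1.71 and 2.39, all above 0, whereas for Icam1 the difference of NK2 against NK1 (1.97) stands apart from the pair between control mice.

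Across the set, no ligand differed between treatments beyond the spread between mice. Of the 9 ligands tested, 4 had a positive and 5 a negative log2 fold change, with a median of -0.06, beside a median of -0.03 over all 16917 genes, of which 51.7% were negative. Called by edgeR at an adjusted p under 0.05 were 0 of the 9 ligands and 0 of all genes (0%). At an unadjusted p under 0.05 there were 0 of 9 ligands and 426 genes, 2.52%. DESeq2 called 39 genes and none of the ligands. The mice varied widely (the common dispersion was a 64.9% coefficient of variation), and a p that missed the threshold does not show that the treatments were alike. In simulated data this test called 16% of genes changed 4-fold, which were drawn at mean levels above those of Nectin2, Raet1d and Ulbp1.

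**Figure D5:**
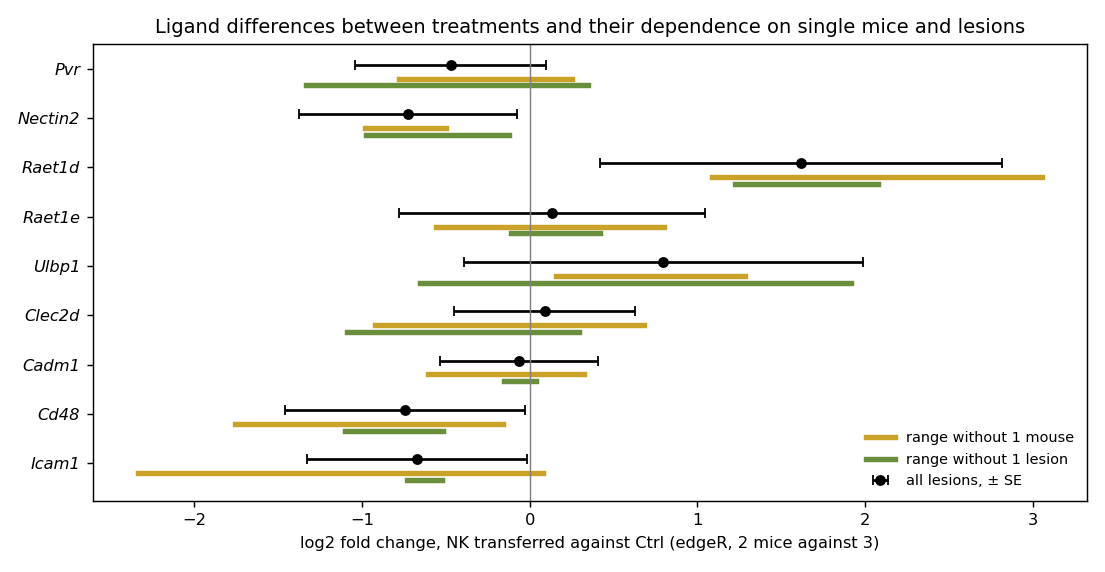
Log2 fold change of each tested ligand between lesions with NK cells and controls (horizontal axis). Black points with bars are the estimate ± 1 SE, and coloured lines are the range of the estimate when 1 mouse (gold) or 1 lesion (green) was left out. The estimates of Nectin2 and Cd48 stayed below 0 and those of Raet1d above 0 in all these fits, while the line of at least 1 kind crossed 0 for Pvr, Raet1e, Ulbp1, Clec2d, Cadm1 and Icam1.

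The receptors that read these ligands were measured in the same lesions. Of 17 receptor and adaptor genes, 12 were tested between treatments. Of these 5 had a positive and 7 a negative log2 fold change with a median of -0.42, and none passed (edgeR; 0 at an unadjusted p under 0.05). The most abundant were Tyrobp, a signalling adaptor (29.7 and 39.3 CPM in NK1 and NK2, 23.3, 51.9 and 63.8 CPM in KO1, KO2 and KO3), and Itgb2 and Itgal, the chains of LFA-1, all of which myeloid cells also express. Itgb2 was 14.8 and 46.4 CPM with NK cells and 16.3, 53.5 and 53.6 CPM in controls, lower in NK1 and KO1 as Cd48 was. Itgal, the LFA-1 chain that contacts Icam1, had 12 counts in NK1 (1.14 CPM) and 27.7 CPM in NK2, against 17.7, 43.7 and 87.0 CPM in controls. It was called between hosts (adjusted p = 0.00106), with a log2 difference of 4.13 ± 0.64 for NK2 against NK1. NK1 was thus the lowest mouse for both Icam1 and Itgal.

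The next receptors were chosen after their values were seen. Crtam, the receptor for Cadm1, had 0 counts in NK1 and 358 in NK2, beside 18, 119 and 3 counts in KO1, KO2 and KO3, and was called between hosts (adjusted p = 0.0222). Cd244a, which encodes 2B4, was also called (adjusted p = 0.0394), with 1.81 and 6.21 CPM in NK1 and NK2 and 5.07, 10.8 and 26.2 CPM in controls. Klrk1, which encodes NKG2D, gave 150 counts in the mice with transferred cells and 48 in control mice. It was the tested receptor gene whose mice did not overlap (1.62 and 2.37 CPM against 0.613, 0.461 and 0.435 CPM), a pattern that 7.94% of all genes tested shared. Its log2 fold change was 1.98 ± 0.92 with an unadjusted p of 0.0630 and an adjusted p of 0.9998 (edgeR). Cd226, which encodes DNAM-1, gave 18 and 20 counts in the same groups and had a log2 fold change of 0.40 ± 1.305 (edgeR, adjusted p = 0.9998). Its counts were far fewer than those of its ligands Pvr and Nectin2. Control lesions held counts of Klrk1, Cd226 and Crtam although their hosts lack NK cells of their own, and which cells these came from was not tested.

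Other ligands of the same families were examined beside the set. Of 19 genes named, 15 were in the table and 5 were tested between treatments. All 5 had negative log2 fold changes, with a median of -0.72, none passed (edgeR; 0 at an unadjusted p under 0.05), and 0 had mice that did not overlap. Nectin1, a nectin of epithelial junctions, had -0.33 ± 0.44. Its mice had 41.8 and 96.3 CPM with NK cells and 83.9, 95.7 and 80.2 CPM in controls. Nectin3, which binds other nectins, had -0.27 ± 0.37, and Icam2, an endothelial ligand of LFA-1, had -0.88 ± 0.74. Icam2 was lowest in NK1 (3.14 CPM), as Icam1 was, and had 17.1 CPM in NK2 and 15.3, 28.7 and 12.1 CPM in controls. Raet1a, Raet1b, Raet1c and H60a had no match among the symbols of the table.

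Icam1 is also a target of NF-kB, the transcription factor of inflammatory signalling. All 13 NF-kB target genes listed were tested, 2 with a positive and 11 with a negative log2 fold change between treatments, with a median of -0.42, and none passed (edgeR; 0 at an unadjusted p under 0.05). The most abundant were Tnfaip2 (-0.82 ± 0.67), Vcam1, an adhesion molecule induced with Icam1 on endothelium (0.65 ± 0.41), and Nfkb1 itself (-0.42 ± 0.40). In the test between hosts 0 of 13 were called, where 5.35% of all genes were, so the count does not set this list apart. Tnfaip2 came nearest of these 3 (adjusted p = 0.0599), with 25.5 CPM in NK1 against 142.8 CPM in NK2 and 118 to 193 CPM in controls. Vcam1 went the other way in NK1, where it was highest at 149 CPM against 58.7 to 93.7 CPM in the other 4 mice.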

How the data were processed

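Lung lesions were cut out by laser from frozen sections, and 2 ng of total RNA per lesion entered a library kit for single cells, per the labels' protocols. The submitters' processing notes name bcl2fastq 2.17, STAR, RSEM 1.2.28, DESeq2 and the mm10 build. The deposited table of the authors holds expected counts, the estimates of RSEM, with no scaling. A second deposited table holds log2 values, as judged from the values, that the authors had normalized by an unstated transformation, and it served only as an alternative. The deposited animal numbers grouped the lesions as the titles do. No column of sample values was left unmapped (0).

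Expected counts were rounded and summed over the lesions of each mouse, since lesions of 1 mouse are not independent. The test between treatments was edgeR (4.0.16, in R 4.3.3), with TMM factors, filterByExpr at a minimum count of 10 and a minimum total of 15, and robust quasi-likelihood F tests, with Benjamini-Hochberg adjustment over 16917 genes. The test between hosts used rounded counts of lesions (15741 genes). SEs were obtained as the absolute log2 fold change over the square root of F. Both tests were checked on simulated data. The test between treatments called 16% of genes changed 4-fold and 93% of genes changed 16-fold. The test between hosts, with the change placed in KO2, called 45% and 93%. The changed genes were drawn above a minimum mean level, which leaves out genes as low as Nectin2, Raet1d and Ulbp1. Unchanged genes called were 9 and 8. The total count was 2964242 to 11798897 per lesion, which limits Ulbp1 and H60b most. Nothing states whether lesions of a mouse are separate seedings, and p-values measure the spread between these samples.

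The members and lists were chosen with earlier results of these data known. Named genes were all members, for each pathway list the 3 with the highest mean count (none passed the test), up to 3 markers per list and a few fixed markers. Of 49585 gene identifiers 49326 matched a symbol. Coordinates are 1-based positions on GRCm38 from GENCODE M21. Members with a promoter window in the RefSeq table were 7 of 10. Alternatives used DESeq2 1.42.0 and limma 3.58.1, other scalings, filters and weights, sums of overlapping genes, and subsets of lesions and mice.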

Additional observations from a re-analysis of the deposited data

Results flagged for a closer look

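Of 34 groups of 4 to 10 lesions of a ligand, 7 had a single lesion far from the others (gap to the nearest lesion over the range of the group, Dixon's 95% limit). That limit flags about 1 in 20 groups of independent, normally distributed values. Here CPM were not transformed, the lesions of NK2 also count in the group with NK cells, and all 7 were highest lesions. The count of 7 can therefore not be set against that rate. The 11 control lesions as a group, and NK1 and KO3 as single mice, were outside the size limits. Pvr in KO3-2 (270.5 CPM) was therefore not screened. Pvr in NK2 was 87.3 CPM in NK2-2 against 38.7 to 40.3 in its other 3 lesions. Nectin2 in KO2 was 6.55 CPM in KO2-4 against 2.56 to 2.99. Raet1e in KO2 was 21.5 CPM in the same lesion, KO2-4, against 6.52 to 8.74. Ulbp1 was 4.92 CPM in NK1-2 against 0 to 1.08 in the other lesions with NK cells, and 2.78 CPM in KO1-2 against 0 to 0.690 in the other lesions of KO1, which are 12 and 9 counts. Clec2d was 206 CPM in NK1-1 against 13.9 to 57.5 in the other lesions with NK cells. Cd48 in KO2 was 42.5 CPM in KO2-1 against 17.7 to 20.97, and that lesion also had the highest leukocyte sum of its mouse, 1980 CPM.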

How the results depend on the processing

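No ligand passed the test between treatments in any of 321 values from alternatives (lowest adjusted p 0.539, Icam1 without mouse NK2). The number of genes called between treatments was 0, and became 39 with DESeq2 (27 higher, 12 lower), 224 with no filter on low counts (140 higher, 84 lower), 7 with the mouse number as a replicate block (6 higher, 1 lower), 0 to 4 without 1 mouse (4 without NK2) and 0 without 1 lesion. The labels do not give that number as a litter, batch or day (correlations of deviations 0.0957 for NK1 and KO1, 0.289 for NK2 and KO2), though NK1 and KO1 share library numbers 1 to 8. Under that replicate block Pvr turned to 0.26 and Raet1e to -0.44. KO3 is the only mouse of its number, so in that fit it adds nothing to the contrast of treatments. Without mouse KO3 the values were 0.25 for Pvr and -0.36 for Raet1e. Library size alone turned Clec2d to -0.22 and Cadm1 to 0.00786. Equal weight of lesions turned Clec2d to -0.74, the mouse as a random effect turned it to -0.65 and Pvr to 0.10, and the deposited normalized table turned Clec2d to -0.55. Without the lesions over 40% mt-Rnr2, which leaves NK2 as the only mouse with NK cells, Pvr was 0.48, Clec2d -0.90, Cadm1 0.28, Cd48 0.0195 and Icam1 0.0697. Leaving out 1 mouse gave ranges of -0.78 to 0.25 for Pvr, -0.56 to 0.80 for Raet1e, -0.92 to 0.68 for Clec2d, -0.61 to 0.33 for Cadm1 and -2.34 to 0.0766 for Icam1. Leaving out 1 lesion gave -1.33 to 0.35 for Pvr, -0.11 to 0.42 for Raet1e, -0.65 to 1.92 for Ulbp1, -1.09 to 0.29 for Clec2d and -0.15 to 0.04 for Cadm1. Nectin2, Raet1d and Cd48 kept their sign in all fits that left out 1 mouse or lesion, with ranges without 1 mouse of -0.98 to -0.50, 1.09 to 3.06 and -1.76 to -0.16. Between hosts, 842 genes became 3048 with the DESeq2 likelihood ratio test, and 302 (without KO3-2) to 2214 (without KO3-1) when 1 lesion was left out. Chosen after seeing the data were the sums of overlapping genes, the control mice alone (397 genes), the mice with NK cells alone (0 genes) and the host test without the lesions over 40% mt-Rnr2. Pvr passed the host test with DESeq2 (adjusted p = 0.00579), with no filter (0.0303) and with the strict filter (0.0485), and Raet1e with DESeq2 (0.0133) and with library size alone (0.0464). The cause of these changes was not tested. Where a fit leaves a treatment with 1 mouse, that mouse is taken to vary like the others. Depth limits Ulbp1, Raet1d and H60b.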
